A study of Sus scrofa with 35 samples.

Results

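LDHA and LDHB encode the A (muscle) and B (heart) subunits of lactate dehydrogenase, and both were followed in back muscle (longissimus dorsi) of growing pigs under thermoneutral (TN) or heat stress (HS) conditions. These 2 genes are among 10047 named genes with a kept probe. They were measured by all non-control array probes that the scanner files name LDHA or LDHB in any letter case: 16 of 60305 probes, of which 3 were LDHA and 13 LDHB. All 16 passed the filter on dim probes, which kept 41517 probes, and all 16 were well above background on each of the 35 arrays.

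The arrays came from castrated males of 3 genetic types, Creole, Large White and their F1 cross, and each carried RNA from 1 muscle sample. Each of the 6 breed-by-temperature groups held 6 arrays, apart from F1 HS with 5. By the labels TN was 24 °C and HS was 30 °C, while the growth protocol and the study's methods both give 32 °C over 5 days, so the label's value differs from the other 2 sources. The study's methods have the TN pigs killed ahead of the heat period and the HS pigs at its end, so slaughter day and pen cannot be told apart from temperature, and the pigs of a breed came from a few litters. In whole muscle, fewer cells of a type and less RNA per cell cannot be told apart.

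Lactate dehydrogenase is a tetramer that interconverts pyruvate and lactate together with NADH and NAD+. The A subunit predominates in fast glycolytic fibres, where pyruvate from glycolysis is reduced to lactate, and the B subunit predominates in heart and in slow oxidative fibres, where lactate taken up from the blood is turned back into pyruvate. The subunits mix freely, so the balance of the 2 transcripts bears on which of the 5 isoenzymes a fibre makes. Monocarboxylate transporters carry lactate across the membrane, and the pyruvate dehydrogenase complex, inside the mitochondrion, converts pyruvate to acetyl-CoA.

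The porcine arrays carry probes of 60 bases, and what each probe reads sets what its value means. RefSeq places LDHA on chromosome 2 of Sscrofa11.1 at chr2:40814163-40827284. It lists LDHB under 2 gene records, 1 at chr2:12988754-12990033, which spans 1280 bases and carries the transcript accession of most LDHB probes, and 1 at chr5:51810932-51831218, which spans 20287 bases. The files leave these probes unmapped, so transcripts of the 2 records cannot be told apart in the LDHB values. The LDHB probes at transcript positions 323, 585, 752 and 780, as the files number them, are shown whole because they sample the body of the transcript, with capitals marking the 32 bases that the last 2 share. In 1 common reading frame, all 7 LDHB probes at positions 323 to 972 were free of stop codons.
LDHB 323: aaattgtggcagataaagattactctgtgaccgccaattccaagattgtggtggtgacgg
LDHB 585: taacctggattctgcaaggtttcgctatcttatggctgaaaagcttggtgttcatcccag
LDHB 752: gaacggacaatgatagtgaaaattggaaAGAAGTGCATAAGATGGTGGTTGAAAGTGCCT
LDHB 780: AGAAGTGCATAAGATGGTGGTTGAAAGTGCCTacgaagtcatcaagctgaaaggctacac

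The other 6 LDHB probes lie at the 3′ end. The 4 windows of 30 bases are shown to identify the brightest probes of each gene and the end of the LDHB transcript, with the AATAAA polyadenylation motif in capitals.
LDHB brightest: aagcaagtccttgaacaAATAAAgttaact
LDHB 1235: gtccttgaacaAATAAAgttactatcatag
LDHA brightest: taaattggttcttgtaaaatagttctactt
LDHA second: ctgggatccaatgtacaaatccagtattgc

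AATAAA was in 4 of the 13 LDHB probes as given and in none on the opposite strand, and in 0 of the 3 LDHA probes on either strand. These 4 probes hold 1 motif site, since 3 have the same sequence, numbered from 1229, and the fourth, from 1235, overlaps them. Among all 60305 probes, 10.3% held it as given and 4.32% on the opposite strand. No LDHA probe shared more than 8 bases in a row with an LDHB probe on the same strand, or 10 on the opposite strand. The 13 LDHB probes had 11 distinct sequences, since 3 of them, the brightest included, were the same 60 bases. After their constant offsets were removed, these 3 identical probes differed on an array by an SD of 0.03 log2, against an SD of 0.23 between LDHB values of arrays in a group. The third LDHA probe, named through a protein accession, was far dimmer than the other 2, its strand could not be settled from the files, and it is called the dim LDHA probe. Each gene is represented by its probe with the highest mean.

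Neither gene was limited by background or by saturated spots. LDHA was among the brightest spots of the array, at rank 87 to 228 of 60305 probes, and its unnormalised intensity of 251898 to 453307 was 32.4 to 58.2% of the scanner's saturation value. LDHB reached 1.78 to 4.92% of saturation, and no spot was saturated. Compression of LDHA values so near the top of the range was not tested. The size of the LDHA change depended on the scaling, as given below. Since probes bind with different strength, the level of LDHB cannot be set against that of LDHA, and LDHB minus LDHA is read here only through its change between arrays.

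The label of the tissue was checked on 8 skeletal muscle genes, and all 8 had a kept probe. Their mean level was 16.1 to 16.7 log2 on TN arrays and 15.8 to 16.5 on HS arrays. Markers of other cell types were also called on HS arrays: 6 of 16 leukocyte markers rose and none fell, and 4 of 11 connective tissue markers rose and none fell, while 3 of 5 erythrocyte markers fell and none rose. Over 10047 named genes 8.21% were called higher and 9.99% lower. The mean leukocyte marker level spanned 7.82 to 10.56 on TN and 9.15 to 10.99 on HS arrays. The mean connective tissue marker level spanned 10.73 to 12.38 on TN and 11.79 to 12.68 on HS arrays.

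LDHB was higher on HS than on TN arrays in all 3 breeds, and LDHA was lower. The pair was chosen with this contrast known, so temperature values of LDHA and LDHB are a description and carry no test. In Creole pigs, LDHB spanned 13.78 to 14.64 log2 intensity at TN (median 14.45) and 14.82 to 15.25 at HS (median 14.91). In F1 pigs, it spanned 14.38 to 14.68 at TN (median 14.56), and the HS values were 14.71, 15.05, 15.09, 15.27 and 15.31. In Large White pigs, it spanned 14.36 to 15.09 at TN (median 14.61) and 14.63 to 15.15 at HS (median 14.96). Every Creole and F1 HS array thus lay above every TN array of its breed, while the Large White ranges overlapped. HS values lying wholly above TN values were found for 0.933% of all probes in Creole, 0.781% in F1 and 0.378% in Large White.

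The LDHB change was 0.63 log2 in Creole (SE 0.13), 0.54 in F1 (SE 0.14) and 0.29 in Large White (SE 0.13). The Large White value was 0.083 with the processed signal, 0.12 with 75th percentile scaling, 0.18 with the connective tissue mean of each array as a covariate and 0.42 with spike-in scaling. With the slow fibre marker mean as a covariate, chosen after seeing the data, the changes were 0.57 in Creole, 0.47 in F1 and 0.42 in Large White. Over the breeds, without a covariate, the LDHB change was 0.49 (SE 0.08, 17 HS and 18 TN arrays), a fold of 1.40. All 17 HS arrays lay above the TN mean of their breed. Ordered by mean level, the groups ran from Creole TN at 14.33 ± 0.32 (SD, n = 6) through F1 TN at 14.54 ± 0.12 (SD, n = 6), Large White TN at 14.63 ± 0.27 (SD, n = 6), Large White HS at 14.91 ± 0.21 (SD, n = 6) and Creole HS at 14.96 ± 0.16 (SD, n = 6) to F1 HS at 15.09 ± 0.24 (SD, n = 5). The ranges of every 2 neighbours in this order overlapped.

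**Figure D1:**
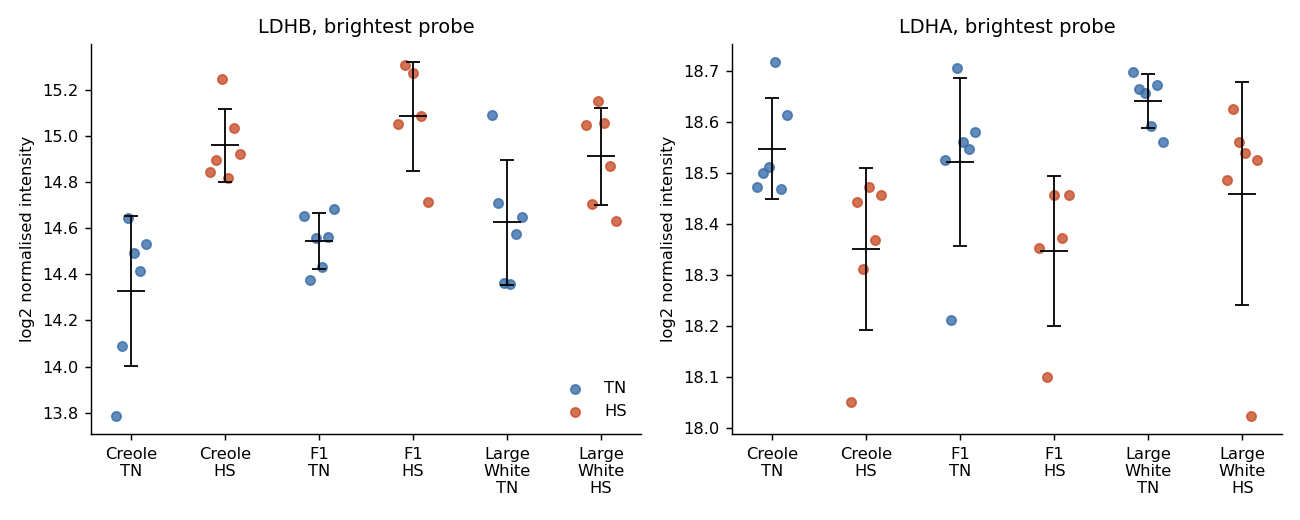
LDHB (left) and LDHA (right), log2 normalised intensity of the brightest probe on each array by breed and temperature; points are arrays, horizontal bars the group mean and whiskers 1 SD. LDHB on HS arrays of Creole and F1 pigs sits above all their TN arrays, and the axes do not start at 0.

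LDHA moved the other way. Whether by less than LDHB depended on the scaling: over the breeds LDHA changed by -0.18 log2 and LDHB by 0.49 after quantile normalisation, by -0.33 and 0.44 with median scaling, by -0.40 and 0.37 with 75th percentile scaling, and by -0.42 and 0.35 with the processed signal. In Creole pigs it spanned 18.47 to 18.72 log2 intensity at TN (median 18.51) and 18.05 to 18.47 at HS (median 18.41). In F1 pigs it spanned 18.21 to 18.71 at TN (median 18.55), and the HS values were 18.10, 18.35, 18.37, 18.46 and 18.46. In Large White pigs it spanned 18.56 to 18.70 at TN (median 18.66) and 18.02 to 18.63 at HS (median 18.53). The ranges overlapped in each breed, by the edge of the range only in Creole. The LDHA change was -0.20 log2 in Creole (SE 0.09), -0.17 in F1 (SE 0.09) and -0.18 in Large White (SE 0.09), and -0.18 over the breeds (SE 0.05), a fold of 0.880.

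None of the 17 HS arrays lay above the LDHA TN mean of its breed. Ordered by mean level, the LDHA groups ran from F1 HS at 18.35 ± 0.15 (SD, n = 5) and Creole HS at 18.35 ± 0.16 (SD, n = 6) through Large White HS at 18.46 ± 0.22 (SD, n = 6), F1 TN at 18.52 ± 0.16 (SD, n = 6) and Creole TN at 18.55 ± 0.10 (SD, n = 6) to Large White TN at 18.64 ± 0.05 (SD, n = 6). Each 2 neighbours overlapped here as well. Single arrays weighed on the values within a breed. Without the lowest Large White HS array (replicate 5, at 18.02) the Large White change was -0.09, and without F1 HS replicate 2 the F1 change was -0.11.

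The LDHB probes moved the same way from position 323 to the 3′ end. All 13 LDHB probes were higher at HS, by 0.39 to 0.49 log2, and at an adjusted p under 0.05 in limma (called from here on) all 13 were called higher, against 7.73% of all probes called higher and 16% called in either direction. Because the pair was chosen on this contrast, nothing is read from that count, and 13 probes of 1 transcript are not 13 replicates. The 7 probes at positions 323 to 972 changed by 0.39 to 0.46, and the 6 at the 3′ end by 0.44 to 0.49. With group means removed, the 78 pairs of LDHB probes had r values across arrays of 0.69 to 0.99 (median 0.90). HS values lay wholly above TN values for 7 of 13 LDHB probes in Creole, 7 in F1 and 0 in Large White.

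Of the 3 LDHA probes, the 2 bright ones were called lower, with changes of -0.18 (SE 0.05) and -0.14 (SE 0.05), against 8.3% of all probes called lower. The dim probe changed by -0.20 (SE 0.08) and was not called. The 2 bright LDHA probes followed each other across arrays (r 0.92 with group means removed, n = 35), and the dim probe followed the brightest less closely (r 0.49).

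**Figure D2:**
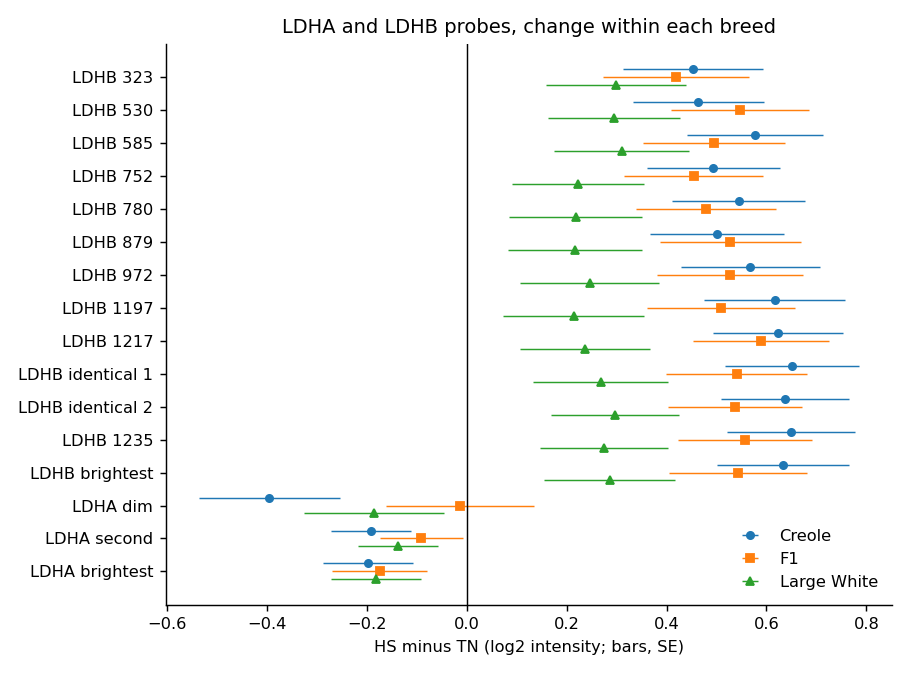
HS minus TN in log2 intensity for each of the 16 probes within Creole, F1 and Large White pigs; points are changes and bars SE from the limma model with 1 mean per group, and LDHB probes run from position 323 down to the 3′ end, with those named identical sharing the sequence of the brightest. All 13 LDHB probes lie right of 0 in all 3 breeds, with the Large White points leftmost, and the LDHA probes lie at or left of 0.

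Expressed on each array as LDHB minus LDHA, the shift joins the rise of LDHB and the fall of LDHA, so it exceeds either by construction. In Creole pigs the difference spanned -4.69 to -3.87 at TN (median -4.15) and -3.65 to -3.07 at HS (median -3.43). In F1 pigs it spanned -4.15 to -3.84 at TN (median -3.94), and the HS values were -3.74, -3.30, -3.29, -3.18 and -2.79. In Large White pigs it spanned -4.29 to -3.61 at TN (median -4.03) and -3.92 to -3.15 at HS (median -3.46). TN and HS arrays were separate in Creole and F1 and overlapped in Large White.

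The difference rose from TN to HS by 0.83 log2 in Creole (SE 0.15), 0.72 in F1 (SE 0.16) and 0.47 in Large White (SE 0.15). Over the breeds the change was 0.67 (SE 0.09), so that LDHB relative to LDHA was 1.59-fold its TN value, and all 17 HS arrays lay above the TN mean of their breed. These values belong to quantile normalisation. The changes of LDHB and LDHA lay further apart with median scaling (0.44 and -0.33), 75th percentile scaling (0.37 and -0.40) and spike-in scaling (0.52 and -0.25). Arrays were hybridised on slides that held both temperatures. Within the 5 slides the change in the difference was 0.96, 0.46, 0.91, 0.39 and 0.47, the last with 1 HS array only. LDHB alone changed by 0.27 to 0.66 within slides and LDHA by -0.30 to -0.01.

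**Figure D3:**
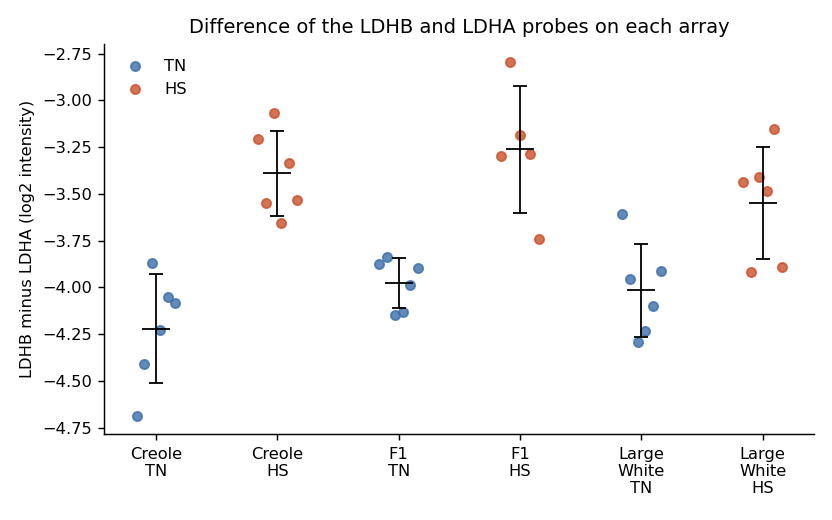
LDHB minus LDHA in log2 intensity on each array by breed and temperature; points are arrays, horizontal bars the group mean and whiskers 1 SD. The HS arrays lie between -3.92 and -2.79 and the TN arrays between -4.69 and -3.61, with an overlap in Large White; values below 0 reflect different probes and are not an isoform ratio.

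Breed was not used to choose the pair, so breed comparisons were tested. No LDHA or LDHB probe was called between breeds. LDHB was 0.12 log2 lower in Creole than in Large White (SE 0.10, 95% interval -0.32 to 0.07, limma adjusted p = 0.60), where 3.64% of all probes were called. F1 minus Large White was 0.04 (SE 0.10, 95% interval -0.15 to 0.24, limma adjusted p = 0.92), where 0.525% of all probes were called. F1 minus Creole was 0.17 (SE 0.10, 95% interval -0.03 to 0.37, limma adjusted p = 0.68), where 0.477% were called.

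For LDHA, Creole minus Large White was -0.10 log2 (SE 0.06, 95% interval -0.23 to 0.02, limma adjusted p = 0.47). F1 minus Large White was -0.12 (95% interval -0.25 to 0.01, limma adjusted p = 0.54), and F1 minus Creole was -0.01 (95% interval -0.14 to 0.11, limma adjusted p = 0.99). Against the midpoint of the parental breeds, F1 pigs were not called either, with 0.11 for LDHB (limma adjusted p = 0.89) and -0.07 for LDHA (limma adjusted p = 0.90), where 0.246% of all probes were called. Among all 16 probes the lowest unadjusted limma p in these contrasts was that of the dim LDHA probe in Creole against Large White (0.26 log2, unadjusted p = 0.016, adjusted p = 0.18), where 15.4% of all probes had an unadjusted p under 0.05. A missed threshold does not show equal levels, and the intervals give the differences these arrays leave possible.

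The LDHB change was smallest in Large White, and whether breeds differed in their change was tested directly. The Creole change minus the Large White change was 0.35 log2 for LDHB (95% interval -0.03 to 0.73). In the limma F-test of breed by temperature, LDHB had an unadjusted p of 0.17 and an adjusted p of 0.96, and LDHA had 0.98 and 1.00. No probe of all 41517 was called in this test by limma, and 1593 (3.84%) had an unadjusted p under 0.05. The lowest unadjusted p among the 16 probes was 0.083, for the LDHB probe at position 1217.

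For LDHB minus LDHA, a two-sided permutation test within temperature gave -0.02 for Creole minus Large White (permutation p = 0.84), 0.16 for F1 minus Large White (permutation p = 0.17) and 0.19 for F1 minus Creole (permutation p = 0.093). Adjusted over the 3 pairs, these permutation p-values were 0.84, 0.25 and 0.25. The HS minus TN change was 0.36 larger in Creole than in Large White (permutation p = 0.10, adjusted 0.31) and 0.25 larger in F1 than in Large White (permutation p = 0.27, adjusted 0.40). It was 0.11 smaller in F1 than in Creole (permutation p = 0.60, adjusted 0.60).

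The other genes that make, move or use pyruvate and lactate were described from lists chosen with earlier results of these data known. Of 38 listed genes of lactate and pyruvate handling, 30 had a kept probe, 2 were called higher and 14 lower at HS, with a median change of -0.20 log2. The median over all 10047 named genes was -0.03, and the shares called were the 8.21% and 9.99% given above. LDHA and LDHB are themselves in this list. SLC16A7, a monocarboxylate transporter with high affinity for its substrates, was the other gene that rose, by 0.36 (SE 0.12, limma adjusted p = 0.045), with TN arrays at 6.25 ± 0.35 (SD, n = 18) and HS arrays at 6.61 ± 0.39 (SD, n = 17). Its second probe was not called, and the gene lost its call in 20 of the 35 fits that left out 1 array. With the leukocyte mean of each array as a covariate 2 genes of the list were called lower, with the connective tissue mean 2, and with the fast fibre or erythrocyte mean 0, covariates chosen after seeing the data. Over the whole array the probes called lower went from 3445 of 41517 to 1157 with the leukocyte mean, 437 with the connective tissue mean, 832 with the fast fibre mean and 110 with the erythrocyte mean.

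Among the lactate transporters, SLC16A3, typical of glycolytic fibres, fell by 0.28 log2 (limma adjusted p = 0.0055, 1 of 2 probes) and BSG, their chaperone, by 0.23 (limma adjusted p = 0.030). SLC16A1, a widely expressed lactate transporter, changed by 0.05 (limma adjusted p = 0.68, 0 of 8 probes called). LDHD, which oxidises D-lactate in the mitochondrion, changed by -0.32 (limma adjusted p = 0.062).

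In the pyruvate dehydrogenase complex, PDHB fell by 0.18 log2, PDHX by 0.27, DLAT by 0.27 and DLD by 0.39, with limma adjusted p-values of 0.0041 to 0.011. PDHA1, its catalytic alpha subunit, changed by -0.20 on its brightest probe (limma adjusted p = 0.37), although 3 of its 5 probes were called lower. PDK4, a kinase that inactivates the complex, fell by 1.92 (SE 0.52, limma adjusted p = 0.012), with 11 of 11 probes called. PDK2 fell by 0.20 (limma adjusted p = 0.045), while PDK1 and PDK3 were not called on the probe used.

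The listed enzymes of the malate-aspartate shuttle, which moves the electrons of cytosolic NADH into the mitochondrion, were all called lower. MDH1 fell by 0.26 log2, MDH2 by 0.31, GOT1 by 0.55 and GOT2 by 0.31, with limma adjusted p-values of 0.0017 to 0.0042 and every probe of the 4 genes called. GPT, which moves an amino group between alanine and pyruvate, fell by 0.43 (limma adjusted p = 0.0058).

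Of 21 listed glycolytic genes, 16 had a kept probe, 1 was called higher and 8 lower, with a median change of -0.21 log2. With the same covariates, under which calls fell over the whole array as given above, 3 genes were called lower beside the leukocyte mean, 2 beside the connective tissue mean and 0 beside the fast fibre or erythrocyte mean. Those called lower without a covariate included GPI, PFKM, PFKFB1, ALDOA, TPI1, PGK1 and PGAM2. PGK1, which makes ATP from 1,3-bisphosphoglycerate, fell by 0.45 (SE 0.08, limma adjusted p = 0.00043, 7 of 7 probes), and ALDOA, the muscle aldolase, fell by 0.32 (SE 0.06, limma adjusted p = 0.0010). TPI1 fell by 0.52 (SE 0.15, limma adjusted p = 0.014, 6 of 6 probes). A pyruvate kinase carried under the symbol PKM2 is outside these counts, which list PKM, and fell by 0.43 (SE 0.10, limma adjusted p = 0.0046). ENO2, the neuronal enolase, rose by 0.34 (limma adjusted p = 0.0028). The abundant GAPDH and ENO3, the muscle enolase, changed by -0.01 (limma adjusted p = 0.90) and -0.04 (limma adjusted p = 0.29) on their brightest probes, with 0 of 2 GAPDH and 3 of 4 ENO3 probes called lower. Over the scalings and background corrections these 2 probes changed by -0.23 to -0.01 for GAPDH and -0.25 to -0.04 for ENO3.

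Of 16 listed regulators of LDH genes or oxidative metabolism, 12 had a kept probe, and 0 were called higher and 3 lower. These were EPAS1, a hypoxia-inducible factor, by 0.29 log2 (limma adjusted p = 0.0088), ESRRA, an oestrogen-related receptor, by 0.25 (limma adjusted p = 0.026), and TFAM, a mitochondrial transcription factor, by 0.21 (limma adjusted p = 0.00098). HIF1A, the hypoxia factor best known for driving LDHA, changed by 0.09 (limma adjusted p = 0.51), with 1 of its 4 probes called lower. PPARGC1A, a coactivator tied to LDHB in muscle, changed by -0.30 (limma adjusted p = 0.12).

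**Figure D4:**
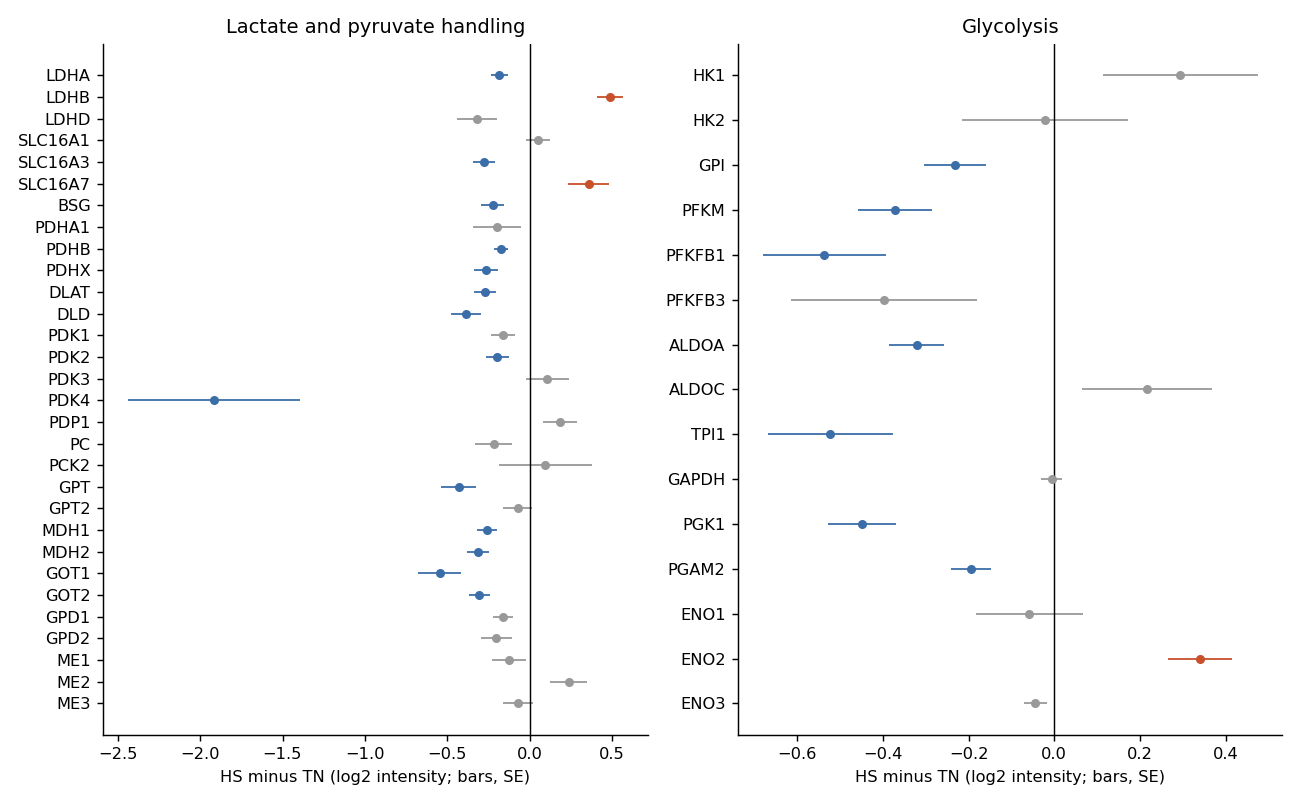
HS minus TN in log2 intensity for genes of lactate and pyruvate handling (left, 30 genes) and glycolysis (right, 15 of the 16 genes), with SE bars from the additive limma model and 1 probe per gene. Red marks genes called higher, blue genes called lower and grey genes not called; LDHB and SLC16A7 are the red points on the left, ENO2 the one on the right, and the 2 panels have different horizontal scales.

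The mean of the slow fibre markers changed by -0.0017 log2 with temperature over the breeds (SE 0.11). Within breeds it changed by 0.14 in Creole (SE 0.18), 0.16 in F1 (SE 0.19) and -0.29 in Large White (SE 0.18). The mean of the fast fibre markers changed by -0.22 over the breeds (SE 0.06), and by -0.33 in Creole, -0.17 in F1 and -0.15 in Large White. Of 10 slow fibre genes with a kept probe, 1 was called higher and 1 lower at HS, and the median change was -0.05 log2. The higher one was CASQ2, a calcium store protein of slow and cardiac muscle (0.86, limma adjusted p = 0.0041), and the lower one TPM3, a slow tropomyosin (-0.29, limma adjusted p = 0.031). MYH7, the slow myosin heavy chain, changed by -0.02 (limma adjusted p = 0.86), and by -0.24 to -0.02 over the scalings and background corrections. The median change of the slow fibre genes was -0.22 with 75th percentile scaling, -0.15 with median scaling, -0.07 with spike-in scaling and -0.23 with the processed signal. Of 12 fast fibre genes, 0 were called higher and 4 lower, with a median of -0.14. Those 4 were MYH2, TNNI2, ATP2A1 and MYBPC2. MYH4, the fastest myosin of the list, changed by -0.01 on its brightest probe (limma adjusted p = 0.81), although 6 of its 9 probes were called lower. Over the scalings and background corrections this probe changed by -0.24 to -0.01. With 75th percentile scaling or the processed signal 11 of the 12 fast fibre genes were called lower, with median scaling 10 and with spike-in scaling 3. Of all 41517 probes, 3445 were called lower in the main fit and 6781 with 75th percentile scaling. The processed signal gave 4553, median scaling 2880 and spike-in scaling 627.

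Across animals LDHB was related to the slow fibre markers, and LDHA to the fast and, over all arrays, also the slow ones. Whether these correlations differ from each other was not tested. Correlations were taken over 35 arrays after the mean of each group was subtracted, with permutation p-values adjusted over 19 relations, of which 9 had an adjusted p under 0.05. LDHB and LDHA did not track each other (r 0.10, permutation p = 0.58, adjusted 0.74; rho 0.08, permutation p = 0.63). LDHB rose with the mean of the slow fibre markers (r 0.65, permutation p = 3e-05, adjusted 0.00029; rho 0.72, permutation p = 1e-05, the smallest these permutations can give). The relation was 0.73 without the 2 arrays farthest from the median of the slow fibre mean, and 0.37 to 0.91 within each of the 4 full slides. LDHB had no such relation to the fast fibre mean (r -0.03, permutation p = 0.89; rho 0.01, permutation p = 0.96).

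LDHA rose with the mean of the fast fibre markers (r 0.78, permutation p = 1e-05, adjusted 0.00019; rho 0.61, permutation p = 6e-05). This r was 0.62 without the 2 arrays farthest from the median and -0.01 to 0.93 within slides, with 3 of 4 slides above 0. The 4 arrays Creole HS 1, F1 HS 2, F1 TN 2 and Large White HS 5 lay 0.25 to 0.44 below their group mean in LDHA, and the next array lay 0.08 below. Over the other 31 arrays r was 0.45 (permutation p = 0.010), a choice made after the values were seen. LDHA also had an r of 0.58 with the slow fibre mean (permutation p = 0.00029, adjusted 0.0018; rho 0.38, permutation p = 0.024). This r was 0.31 without the 2 farthest arrays and 0.27 without those 4 arrays (permutation p = 0.15). Both LDHA relations thus leaned on those 4 arrays.

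**Figure D5:**
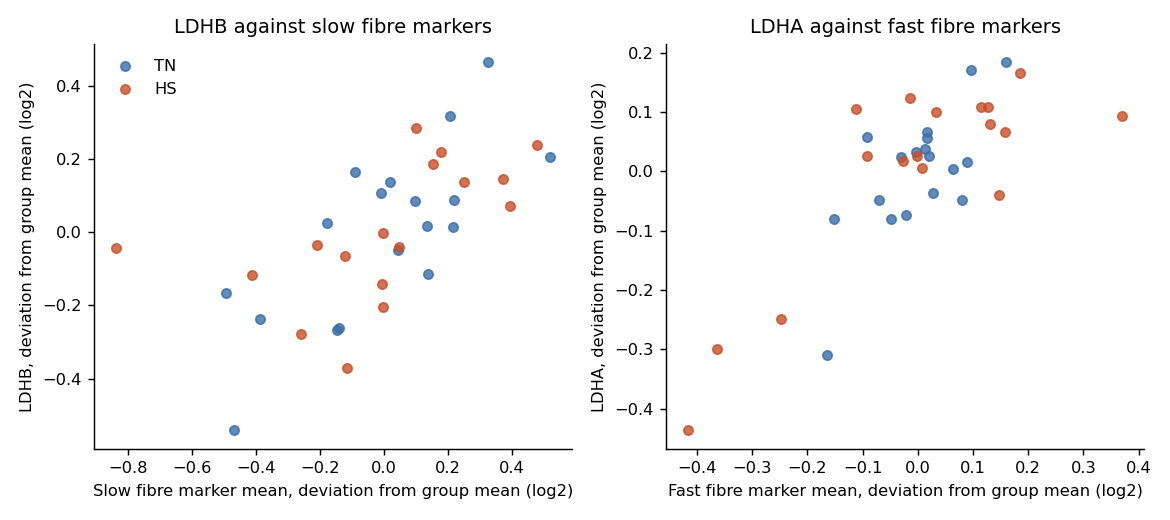
LDHB against the mean of 10 slow fibre markers (left) and LDHA against the mean of 12 fast fibre markers (right), each as the log2 deviation from the mean of the breed-by-temperature group; every point is 1 array (n = 35), blue TN and red HS. LDHB climbs along the slow fibre axis at both temperatures (r 0.65), and on the right 4 arrays sit apart at low LDHA, without which r falls from 0.78 to 0.45.

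The difference LDHB minus LDHA fell with the fast fibre mean (r -0.47, permutation p = 0.0040, adjusted 0.018; rho -0.42, permutation p = 0.012) and rose with the leukocyte mean (r 0.47, permutation p = 0.0047, adjusted 0.018; rho 0.46, permutation p = 0.0061). Over the 31 arrays without the 4 low ones these r values were -0.24 (permutation p = 0.20) and 0.42 (permutation p = 0.020). LDHA fell with the leukocyte mean (r -0.45, permutation p = 0.0063, adjusted 0.019; rho -0.31, permutation p = 0.075) and with array brightness, the 75th percentile of unnormalised intensity (r -0.44, permutation p = 0.0071, adjusted 0.019; rho -0.44, permutation p = 0.0074). Over the 31 arrays the r with brightness was -0.35 (permutation p = 0.056). HS arrays were 0.18 log2 brighter than TN arrays (SE 0.07). The relations of LDHB and of the difference to the connective tissue mean (r 0.43 and 0.39, adjusted permutation p 0.024 and 0.042; rho 0.20 and 0.29, permutation p 0.25 and 0.095) were 0.29 and 0.29 without the 2 farthest arrays. With the leukocyte mean of each array as a covariate the HS minus TN change was 0.43 for LDHB and -0.12 for LDHA, and with the connective tissue mean it was 0.37 and -0.18. With the fast fibre mean it was 0.46 for LDHB and -0.04 for LDHA, and with the slow fibre mean 0.49 and -0.18. Beside the fast fibre, leukocyte or connective tissue mean 0 LDHA probes were called, and beside the slow fibre mean 2 were.

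The named genes whose deviations were most like those of each member were taken over 10045 genes and the same 35 arrays, as a description. LDHB was most like FEZ2 (r 0.76), NES (r 0.75), COL8A1 (r 0.75), FAP (r 0.73) and CHRNA1 (r 0.73), of which NES encodes the intermediate filament nestin and CHRNA1 the muscle acetylcholine receptor subunit. It was least like NUP35 (r -0.78), SUMO4 (r -0.72) and ZNF22 (r -0.70). LDHA was most like CASQ1, the calcium store protein of fast fibres (r 0.88), PRKACA, a catalytic subunit of protein kinase A (r 0.86), PKM2, as the files name a pyruvate kinase (r 0.85), GPI (r 0.85) and PFKM (r 0.83), so 3 of these 5 are glycolytic enzymes. It was least like UFM1 (r -0.80), SSBP1 (r -0.79) and TMEM49 (r -0.79). CASQ1 is also in the fast fibre list. For LDHB minus LDHA, the highest were MYO9B (r 0.69), FAM120C (r 0.68), C9ORF16 (r 0.66), MBD4 (r 0.66) and MAGED2 (r 0.66), and the lowest SAV1 (r -0.74), CAPZA2 (r -0.74) and ATHL1 (r -0.73).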

How the data were processed

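Each of the 35 arrays measured 1 muscle RNA sample. The authors hybridised Cy3 cRNA on Agilent pig arrays, in 1 colour, and read the spots with Feature Extraction 10.10.1.1. The deposited scanner files hold linear intensity values, with local background and quality flags. The deposited value table holds log2 values of expressed probes, which the authors quantile-normalised from median pixel intensities.

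Here quantile normalisation was applied across the 35 arrays to the median pixel values, log2 was taken, control spots were left out and 105 spots with an outlier flag were set to missing. A probe was kept when 75% or more of the arrays in some group had it well above background. Precision is limited by the number of arrays.

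Probes were named through accessions in the RefSeq table (Sscrofa11.1) or else by the scanner files' own gene names, which gave a symbol to 23965 probes (39.7%). This second step was widened after the first values had been seen, to reach markers without a name. PKM and MPC2 had no probe under those symbols. 1 glycolytic gene is counted in its list but not reported here.

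Models were fitted to all kept probes with limma 3.58.1 in R 4.3.3 (breed plus temperature, or 1 mean per group), with Benjamini-Hochberg adjustment at 0.05. The study's random terms for pen, slaughter day and parents could not be used, since the labels lack them. Littermates, pen mates and pigs killed on the same day therefore count as independent. The SEs and p-values, those of temperature included, can thus be too small and the calls too many. Permutation tests used 1e+05 resamples in Python 3.11.15. Relations across arrays were permuted after group means were removed. Scripts were tested on simulated data. The members, lists and tests were chosen with earlier results of these data known. Named genes were LDHA and LDHB, called members of the fixed lists with a few uncalled ones of known role, and, by r, the 5 genes most and 3 least like each member. Alternatives were other scalings and background corrections, the authors' table, no filter, slide as a block, array weights, covariates and leaving out each array.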

Additional observations from a re-analysis of the deposited data

Results flagged for a closer look

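Of 18 sets of values examined (LDHB, LDHA and their difference in 6 groups), 2 held an array far from the others of its group by Dixon's ratio, and chance alone gives about 1 in 20. LDHA on F1 TN 2 was 18.21 log2, with the nearest F1 TN array at 18.53. LDHA on Large White HS 5 was 18.02, with the nearest Large White HS array at 18.49, and this array was also the brightest of all (75th percentile 9.62 log2). LDHA on F1 HS 2 (18.10) and Creole HS 1 (18.05) fell just under the critical value. Without F1 TN 2 and Large White HS 5 together, a choice made after seeing the data, the changes were 0.48 for LDHB and -0.17 for LDHA.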

How the results depend on the processing

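No paired analysis was possible, because TN and HS arrays came from different pigs and the labels do not give the litters. The number of arrays limits precision, and signal over background does not, since all members were well above background. LDHB kept its direction in every alternative run, with changes of 0.35 to 0.53 log2, and no member was called between breeds in any of them. All 13 LDHB probes were called in each, except with the erythrocyte mean as a covariate, which called 10. As before, nothing is read from these counts. Of all 41517 probes, 3209 were called higher in the main fit, 1331 with brightness as a covariate and 237 with the erythrocyte mean. The scalings changed the size of the LDHA change and the balance of all calls: 48.2% of called probes were higher in the main fit, 27.2% with 75th percentile scaling, 56.7% with median scaling, 37.5% with the processed signal, 63.6% with brightness as a covariate and 86.6% with spike-in scaling. The median change of all probes stayed within -0.08 to 0.07.

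The LDHA change was -0.40 with 75th percentile scaling (-0.49 in Creole, -0.45 in Large White), -0.40 in Creole and -0.35 in Large White with median scaling, and -0.42 with the processed signal (-0.53 in Creole, -0.46 in Large White). With brightness as a covariate 0 LDHA probes were called, and 1 gene of lactate and pyruvate handling was called higher and 3 lower, 3 of glycolysis lower and 1 regulator lower. Genes of lactate and pyruvate handling called higher numbered 1 with 75th percentile scaling, the processed signal or no filter, and those called lower 9 with spike-in scaling. Regulators called lower numbered 5 with 75th percentile and 0 with spike-in scaling. Of all 41517 probes, 3445 were called lower in the main fit, 6781 with 75th percentile scaling, 627 with spike-in scaling and 761 with brightness.

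The marker means of each array as covariates were chosen after seeing the data. With the fast fibre, erythrocyte, leukocyte or connective tissue mean, 0 LDHA probes were called. With the fast fibre mean the LDHA change in Creole turned to 0.037, 1 gene of lactate and pyruvate handling was called higher and 0 lower, 0 of glycolysis lower and 1 regulator lower. With the erythrocyte mean these counts were 1, 0, 0 and 1, and 0 glycolytic genes were higher. With the leukocyte mean 1 gene of lactate and pyruvate handling was higher, and 2 of that list and 3 of glycolysis were lower. With the connective tissue mean 2 genes of that list, 2 of glycolysis and 1 regulator were lower. In each case the cause was not tested.

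Without 1 array at a time, 1 to 3 LDHA probes were called lower, the low being without Creole HS replicate 1, and 1 to 2 genes of lactate and pyruvate handling were called higher. Of the relations across arrays, recomputed after seeing the data, 9 of 19 had an adjusted permutation p under 0.05 in the main fit. The r of LDHB with the connective tissue mean was 0.30, 0.35 and 0.28 (none below the threshold) with 75th percentile scaling, median scaling and the processed signal. Relations below the threshold only in an alternative were LDHB with brightness (r -0.45 and -0.49) and LDHA with the erythrocyte mean (r 0.50 and 0.41), each with 75th percentile scaling and the processed signal. Others were LDHA with the connective tissue mean (r -0.38, median scaling), LDHB with the leukocyte mean (r 0.38, spike-in) and the difference with brightness (r 0.42 with 75th percentile, median and spike-in scaling, 0.43 with the processed signal). The r of 0.42 is 1 result, since the difference is the same under those scalings.

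Without 1 array at a time, r ranged from 0.13 to 0.51 for LDHB with the connective tissue mean, 0.39 to 0.67 for LDHA with the slow fibre mean, -0.52 to -0.36 for LDHA with the leukocyte mean and -0.52 to -0.34 for LDHA with brightness. For the difference it ranged from 0.19 to 0.52 with the connective tissue mean, 0.39 to 0.55 with the leukocyte mean, -0.54 to -0.38 with the fast fibre mean and 0.14 to 0.50 with the slow fibre mean. Leaving out Large White HS replicate 5 left 6 of these relations no longer called and 1 other newly called, and leaving out Creole TN replicate 1 left 3 no longer called.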
